A study of Mus musculus with 12 samples.

Results

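The genes described here were 8 transcription factors of the pluripotent state, Pou5f1, Sox2, Nanog, Sall4, Utf1, Prdm14, Tfcp2l1 and Zfp42, taken by symbol from the 55487 genes of the whole count table. All 8 were found and all 8 passed the filter on low counts, which left 19235 genes in the tests. The cells were female mouse embryonic stem (ES) cells of a C57BL6/CAST hybrid background, whose maternal and paternal chromosomes carry many single-base differences. There were 4 groups of 3 polyA RNA-seq libraries: wild type at day 0, grown with the cytokine LIF, wild type 7 days after LIF was withdrawn, and libraries labelled SIRT7-KO at the same days. SIRT7 is a protein deacetylase of the sirtuin family. Whether the 3 libraries of a group came from separate cultures, and whether the knockout is 1 clone, is not given in the sources used here, so p-values measure the spread between these libraries, which may be technical.

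OCT4 (the product of Pou5f1) and SOX2 bind DNA side by side as a pair, and together with NANOG they occupy the enhancers of pluripotency genes, their own included. LIF signals through STAT3 and keeps mouse ES cells in the naive state, the state of the pre-implantation epiblast, in which Tfcp2l1, Prdm14 and Zfp42 are also active. When LIF is removed the network is switched off as cells leave that state, while SOX2 and SALL4 are also used by later embryonic lineages.

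The 250 bases before the RefSeq start site (GRCm38.p6) are shown for 4 of the 6 factors with an entry there. Whether the marked letters have a part in the levels of the factors was not tested. Capitals mark every match, on either strand, to the octamer ATTTGCAT or its core TTTGCAT, to the SOX letters ACAATG and to the GC box GGGCGG.
Pou5f1, chr17:35505782-35506031, plus strand: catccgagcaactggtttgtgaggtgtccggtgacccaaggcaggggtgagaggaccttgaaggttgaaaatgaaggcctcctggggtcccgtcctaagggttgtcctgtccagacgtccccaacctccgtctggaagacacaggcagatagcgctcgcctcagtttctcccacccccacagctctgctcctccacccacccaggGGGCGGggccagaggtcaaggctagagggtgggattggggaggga
Sox2, chr3:34649745-34649994, plus strand: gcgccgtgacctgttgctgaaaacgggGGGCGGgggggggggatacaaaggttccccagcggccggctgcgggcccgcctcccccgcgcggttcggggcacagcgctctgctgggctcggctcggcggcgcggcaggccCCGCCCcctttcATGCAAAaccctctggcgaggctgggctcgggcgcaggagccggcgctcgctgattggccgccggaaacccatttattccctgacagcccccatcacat
Nanog, chr6:122707239-122707488, plus strand: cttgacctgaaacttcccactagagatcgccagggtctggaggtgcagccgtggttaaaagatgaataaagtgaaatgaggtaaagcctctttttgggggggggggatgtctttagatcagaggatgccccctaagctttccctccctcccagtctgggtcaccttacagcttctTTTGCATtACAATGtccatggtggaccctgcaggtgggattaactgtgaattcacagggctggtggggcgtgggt
Zfp42, chr8:43307010-43307259, minus strand: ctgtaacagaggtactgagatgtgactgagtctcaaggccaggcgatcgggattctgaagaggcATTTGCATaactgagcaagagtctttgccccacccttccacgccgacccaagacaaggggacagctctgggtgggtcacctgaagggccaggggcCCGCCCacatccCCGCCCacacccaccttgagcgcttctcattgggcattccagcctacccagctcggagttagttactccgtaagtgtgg

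The whole octamer, which POU factors such as OCT4 recognise, stood in Zfp42 at 186 to 179 bases before the start, and 1.60% of 32851 promoters of the same length hold it. Its core was also found in Nanog, 75 to 69 bases before the start, and in Sox2 on the other strand, 99 to 93 bases before the start, against 4.12% of all promoters; every octamer contains the core. In Nanog the SOX letters, present in 10.7% of promoters, followed the core after 1 base, at 67 to 62. StringTie put nearly all Nanog reads on Nanog-201 (99.7% in wild type at day 0), whose annotated start lies 79 bases farther downstream, so the pair stood 154 to 141 bases before that start. Sox2-201 likewise starts 410 bases downstream of the RefSeq start used here. Pou5f1 had a single match, a GC box at 45 to 40, letters that 32.7% of promoters hold. Utf1 held 4 GC boxes, of which a pair overlapped by 1 base. Utf1-201, which held all Utf1 reads, starts 67 bases upstream of the RefSeq start, so the box at 56 to 51 lies inside that transcript. Tfcp2l1 held TATAAA at 28 to 23 bases before the start (12.4% of promoters). Neither the Utf1 nor the Tfcp2l1 window held the octamer, its core or the SOX letters. The ESRRB letters TCAAGGTCA (0.387% of promoters) and the STAT letters TTCNNNGAA (7.02%) were in none of the 6 windows available, those of Pou5f1, Sox2, Nanog, Utf1, Tfcp2l1 and Zfp42.

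Library totals ran from 25190483 to 69079368 counts, and in each library 29.7 to 32.03% of reads in genes were assigned to a parental genome. Levels are in CPM, counts scaled to the library size after TMM normalization. Sirt7 itself was higher, not lower, in the libraries labelled knockout, at 16.9 to 25.1 CPM over both days against 8.03 to 15.3 CPM in wild type. The genotype is therefore called the labelled knockout, since the place of the deletion is not given in the sources used here, and a direction between genotypes would turn if the labels were exchanged. Replicate 1 of the labelled knockout at day 0 stood apart from the other 2 libraries of its group, with chi-square values over genes, divided by their degrees of freedom, of 48.2 and 54.9 against 30.5 between those 2. A value of this size was also found in wild type at day 7, with 51.7 between replicates 1 and 2 against 33.9 and 31.4 for the other pairs. Results that rest on replicate 1 of the labelled knockout at day 0 are given with and without it. A further treatment label (LIF or none) goes against the LIF status given here for 6 of the 12 libraries: it reads none for replicates 1 and 3 of wild type and replicate 2 of the labelled knockout at day 0, and LIF for replicate 2 of wild type and replicates 1 and 3 of the labelled knockout at day 7. It was used for no grouping, and LIF status follows the day and the growth protocol.

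The members are themselves markers of ES cells, and at day 0 their summed level was 5841 to 6255 CPM in wild type and 5394 to 5815 CPM in the labelled knockout. At day 7 the same sum was 437 to 490 CPM and 467 to 479 CPM.

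**Figure D1:**
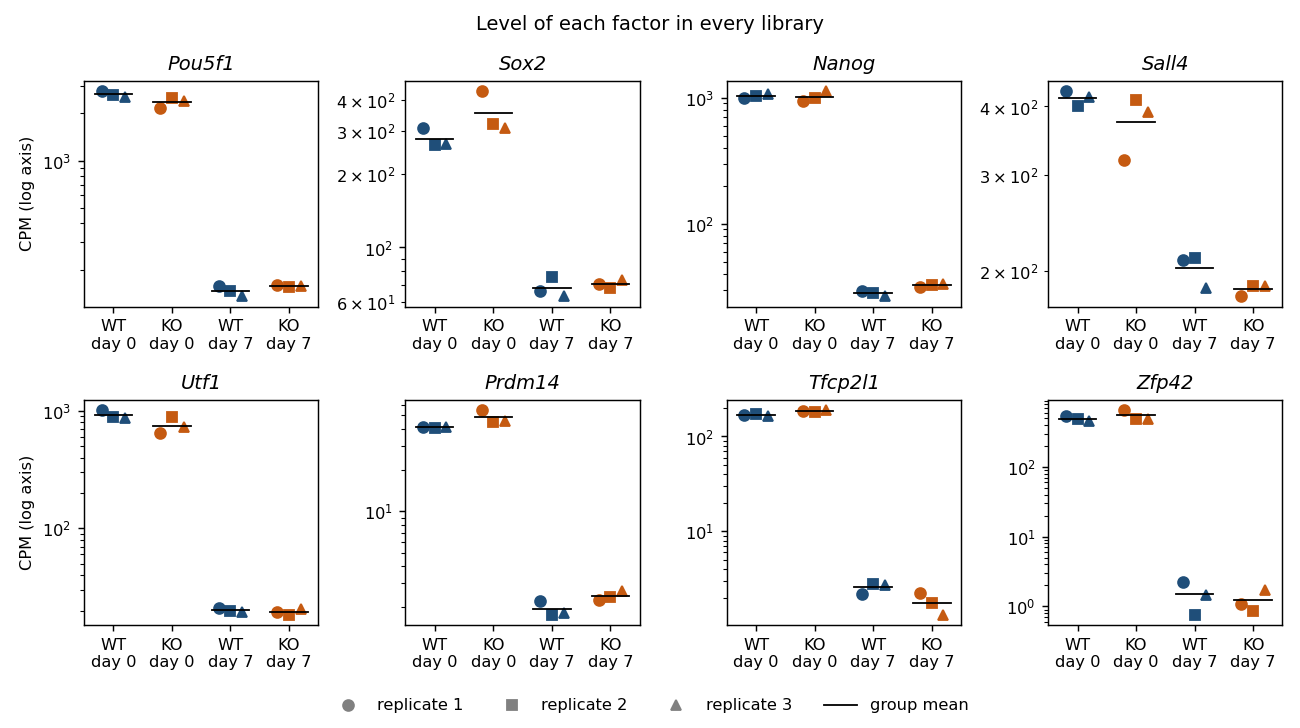
Level of each of the 8 factors in every library, in CPM on a log axis, by genotype and day; symbols give the replicate and the black line the group mean (n = 3 libraries). Every day 7 library lies below every day 0 library for all 8 factors, and replicate 1 of the day 0 knockout lies apart in Sox2, Sall4, Prdm14 and Zfp42. The share of all genes that separate by day was not counted.

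All 8 factors fell over the 7 days without LIF in both genotypes, from 2.05-fold for Sall4 to 334-fold for Zfp42 in wild type and from 2.02-fold to 452-fold in the labelled knockout. In wild type all 8 were among the genes called lower (adjusted p at most 0.05), a call made for 32.1% of the 19235 genes tested, and in the labelled knockout again all 8, against 32.3% of genes. The median log2 difference of the 8 was -4.80 in wild type and -4.65 in the labelled knockout, beside 0.01 and -0.02 over all genes tested. Without replicate 1 of the labelled knockout at day 0 all 8 were called lower as well. The share of all genes whose libraries separate by day was not counted, so such separation, given below for single factors, is a description only. In bulk RNA, fewer cells that express a gene and less of its RNA per cell cannot be told apart.

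Pou5f1 (chromosome 17, 35506018 to 35510772, plus strand, GRCm38) encodes OCT4, the POU factor without which the pluripotent state is lost. It was measured at 2765, 2631 and 2555 CPM in the day 0 wild type libraries and at 157, 146 and 136 CPM at day 7. In the labelled knockout the values were 2158, 2493 and 2405 CPM, then 160, 155 and 158 CPM. Day 7 libraries thus kept 5.53% of the day 0 level in wild type and 6.71% in the labelled knockout, with no overlap between days. The log2 difference was -4.18 (SE 0.08, adjusted p = 3.11e-11, edgeR) in wild type and -3.90 (SE 0.08, adjusted p = 4.19e-11) in the labelled knockout. The antisense gene Gm19553, which overlaps Pou5f1, had at most 47 counts in any library.

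Sox2 (chromosome 3, 34650405 to 34652461, plus strand), the HMG-box partner of OCT4 that later marks neural progenitors, fell less. Its day 0 levels were 309, 261 and 264 CPM in wild type and 435, 318 and 306 CPM in the labelled knockout. At day 7 they were 66.3, 75.7 and 63.2 CPM and 71.0, 68.1 and 73.4 CPM. Thus 24.6% of the day 0 level remained in wild type and 20.1% in the labelled knockout, with every day 7 library below every day 0 library. The log2 differences were -2.02 (SE 0.13, adjusted p = 1.73e-07) and -2.32 (SE 0.14, adjusted p = 6.74e-08). Sox2 lies inside the noncoding gene Sox2ot on the same strand, to which at most 59 counts were given.

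Nanog (chromosome 6, 122707489 to 122714633, plus strand), the homeobox factor that sustains self-renewal when its level is high, went down with little spread between libraries. It went from 992, 1028 and 1065 CPM to 29.2, 28.3 and 26.6 CPM in wild type. The labelled knockout went from 936, 995 and 1121 CPM to 31.4, 32.6 and 33.2 CPM. Of the day 0 level, 2.73% was left in wild type and 3.18% in the labelled knockout. The log2 differences of -5.20 (SE 0.09) and -4.97 (SE 0.08) had the smallest adjusted p of the 8 members in their comparisons, 1.74e-11 and 1.73e-11. The pseudogene copy Nanog-ps1 was given at most 286 counts in a library, so some Nanog reads may have been divided between them.

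Sall4 (chromosome 2, 168748332 to 168767943, minus strand) encodes a zinc-finger protein that binds OCT4 and NANOG and recruits the NuRD repressor complex. It kept the most of its day 0 level of the 8. In wild type it was at 426, 400 and 417 CPM and then at 210, 211 and 186 CPM. In the labelled knockout it was at 319, 411 and 391 CPM and then at 180, 188 and 188 CPM. The day 7 libraries held 48.8% and 49.5% of the day 0 means and did not overlap with them. Its log2 differences were -1.03 (SE 0.09, adjusted p = 1.80e-06) and -1.01 (SE 0.09, adjusted p = 2.20e-06), the largest adjusted p among the members.

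Utf1 (chromosome 7, 139943789 to 139945112, plus strand) encodes a chromatin-bound coactivator confined largely to pluripotent and germ cells. Day 0 levels were 1021, 879 and 878 CPM in wild type and 643, 880 and 726 CPM in the labelled knockout. Day 7 levels were 21, 19.9 and 19.5 CPM and 19.3, 18.4 and 20.5 CPM. Thus 2.17% and 2.59% remained, with the day 7 libraries of each genotype close together and the day 0 libraries of the labelled knockout spread wider. The log2 differences were -5.52 (SE 0.13, adjusted p = 7.46e-11) and -5.27 (SE 0.13, adjusted p = 1.08e-10).

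Prdm14 (chromosome 1, 13113457 to 13127163, minus strand), which holds back FGF signalling and de novo DNA methylation in naive cells and is also needed for primordial germ cells, was low from the start. It was measured at 41.1, 40.7 and 41.1 CPM in wild type and 55, 44.7 and 45.7 CPM in the labelled knockout at day 0. At day 7 it was at 2.22, 1.77 and 1.82 CPM and at 2.26, 2.36 and 2.64 CPM, from 47 to 119 counts per library. Of the day 0 level, 4.72% and 5.0% were left, and the days did not overlap. The log2 differences were -4.40 (SE 0.14, adjusted p = 6.77e-10) and -4.32 (SE 0.14, adjusted p = 7.89e-10).

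Tfcp2l1 (chromosome 1, 118627945 to 118685168, plus strand) encodes a CP2-family factor that LIF and STAT3 induce. It was at 168, 171 and 162 CPM in wild type and 185, 181 and 191 CPM in the labelled knockout at day 0. At day 7 it was at 2.17, 2.82 and 2.75 CPM and at 2.26, 1.76 and 1.32 CPM, from 41 to 190 counts per library. The remaining share was 1.54% in wild type and 0.957% in the labelled knockout, smaller in both genotypes than the shares left of Pou5f1, Sox2 and Nanog. The log2 differences were -6.02 (SE 0.18, adjusted p = 3.18e-10) and -6.69 (SE 0.18, adjusted p = 2.11e-10).

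Zfp42 (chromosome 8, 43295063 to 43306980, minus strand) encodes REX1, a zinc-finger protein related to YY1 and a common reporter of the naive state. Its levels were 531, 493 and 460 CPM in wild type and 663, 493 and 494 CPM in the labelled knockout at day 0. At day 7 they were 2.22, 0.757 and 1.47 CPM and 1.06, 0.844 and 1.74 CPM, which rest on 25 to 96 counts per library. This was the deepest fall of the 8, to 0.300% and 0.221% of day 0, and its day 7 libraries were also the most scattered. The log2 differences were -8.42 (SE 0.39, adjusted p = 8.87e-09) and -8.82 (SE 0.40, adjusted p = 8.21e-09).

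**Figure D2:**
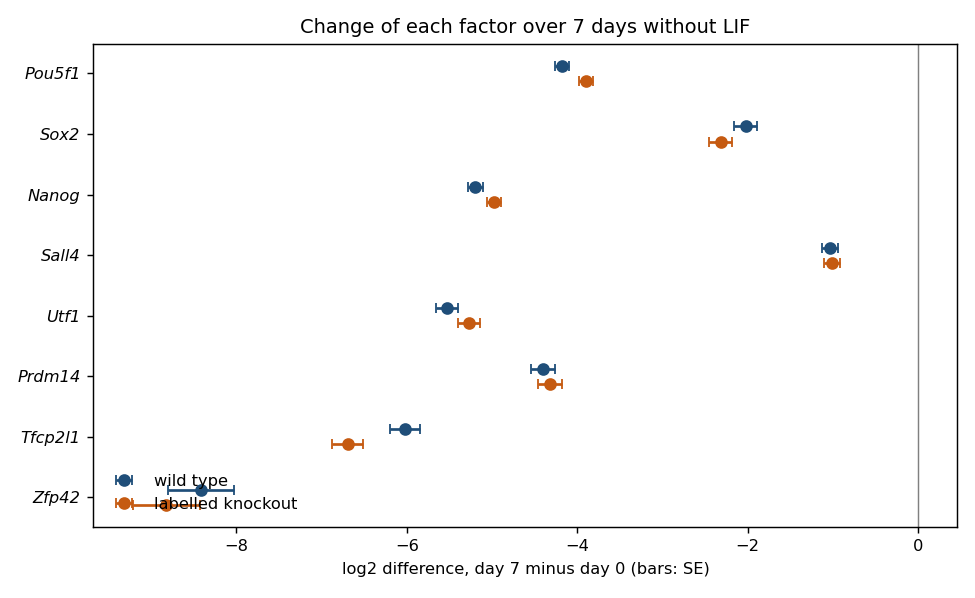
Log2 difference between day 7 and day 0 for each factor in wild type (blue) and in the labelled knockout (orange), from the edgeR fit of all 12 libraries; bars are SE. All 16 points lie below 0, from -1.03 and -1.01 for Sall4 to -8.42 and -8.82 for Zfp42, and the genotypes lie farthest apart for Tfcp2l1, at -6.02 and -6.69.

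Reads divided by the length of the exons, so that genes can be compared, put Pou5f1 first in every group and changed the order below it. At day 0 in wild type the level was 1179 CPM per kilobase for Pou5f1, 755 for Utf1, 459 for Nanog and 263 for Zfp42. Sox2 followed at 135, Sall4 at 74.9, Tfcp2l1 at 17.7 and Prdm14 at 16.0 CPM per kilobase, and no neighbours in this order overlapped. The labelled knockout had the same order, with only Tfcp2l1 (19.7) and Prdm14 (18.9) overlapping. At day 7 in wild type Pou5f1 was at 65.1 CPM per kilobase, followed by Sall4 at 36.5 and Sox2 at 33.3, which overlapped. Utf1 at 16.4 and Nanog at 12.5 came next, and Zfp42 (0.788) and Prdm14 (0.755) overlapped above Tfcp2l1 (0.273). Zfp42 thus went from the fourth place to a level near that of Prdm14, while Sall4 and Sox2, which fell least, moved up in the order. In the labelled knockout at day 7 Sox2 (34.4) and Sall4 (33.5) overlapped, as did Prdm14 (0.945) and Zfp42 (0.647), with Pou5f1 at 70.2, Utf1 at 15.8, Nanog at 14.4 and Tfcp2l1 at 0.188 CPM per kilobase. With each transcript divided by its own length, Sall4 stood above Sox2 in both genotypes at day 7 with no overlap, at 46.9 against 33.3 CPM per kilobase in wild type and 40.3 against 34.4 in the labelled knockout.

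**Figure D3:**
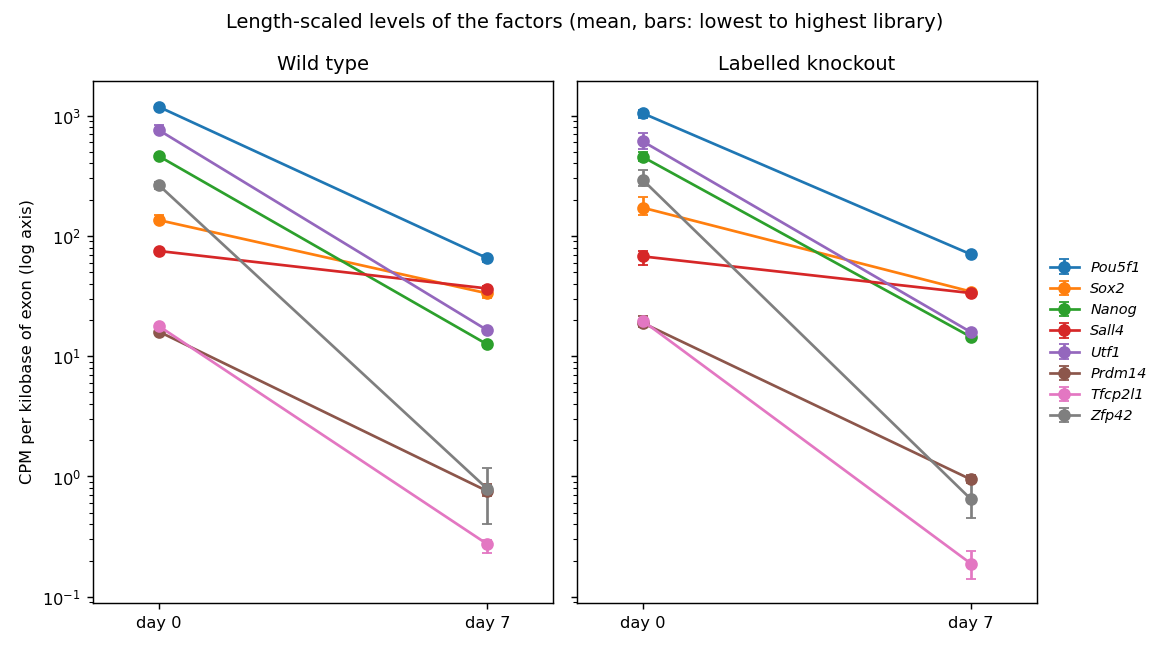
Mean level of each factor at day 0 and day 7 in CPM per kilobase of exon (log axis), wild type left and labelled knockout right; bars run from the lowest to the highest of 3 libraries. Lines cross where Sall4 and Sox2, which fell least, pass Utf1, Nanog and Zfp42.

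Most members were read from 1 transcript in all groups. Pou5f1-201 held 99.6% of the Pou5f1 reads in wild type at day 0, and the longest coding form of Sall4, Sall4-201, held 94.2 to 96.2% of its reads as group means. The shorter Sall4-203, with 1869 coding bases against 3201, held 2.43 to 3.49%. Zfp42 differed: Zfp42-201 held 96.3 ± 0.38% of its reads in wild type at day 0 and 95.7 ± 0.42% in the labelled knockout (SD, n = 3), and was listed with no read in any of the 6 libraries of day 7. Summed over the 3 libraries, 45773 reads of that form in wild type and 50698 in the labelled knockout became 0. All day 7 reads were placed on Zfp42-203, which has an extra exon of 105 bases (chromosome 8, 43302875 to 43302979) and the same 864 coding bases. That form was also lower at day 7, at 1.48 ± 0.73 CPM against 13.5 ± 0.65 CPM in wild type and 1.22 ± 0.47 CPM against 14.9 ± 2.75 CPM in the labelled knockout. StringTie estimates how reads shared by forms are divided, and with so few reads the division is a description only.

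The libraries labelled knockout were compared with wild type at day 0, which asks whether the factors differ before LIF is withdrawn. None of the 8 factors was called by edgeR, where 0.13% of genes were (25 genes). An unadjusted p under 0.05 by edgeR was found for 3 members, Pou5f1, Sox2 and Utf1, and for 2298 of the 19235 genes tested. DESeq2 called 0 of the 8. Pou5f1 was lower in all 3 labelled knockout libraries than in any wild type library, by 0.17 on the log2 scale (log2 difference -0.17, SE 0.07, adjusted p = 0.366). Utf1 had a log2 difference of -0.30 (SE 0.11, adjusted p = 0.307) and Sall4 of -0.15 (SE 0.09, adjusted p = 0.544), with overlapping libraries. Sox2 was at 0.34 (SE 0.13, adjusted p = 0.335), with 1 wild type library above 1 of the labelled knockout. Prdm14 at 0.24 (SE 0.12, adjusted p = 0.459) and Tfcp2l1 at 0.15 (SE 0.14, adjusted p = 0.723) had no overlap between genotypes. The share of all genes whose libraries separate by genotype was not counted at either day, so such separation is a description only. Nanog at -0.02 (SE 0.07, adjusted p = 0.971) and Zfp42 at 0.15 (SE 0.27, adjusted p = 0.890) overlapped. The signs of the 8 differences were divided evenly, 4 positive and 4 negative.

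The differences of Sox2, Sall4, Prdm14 and Zfp42 leaned on replicate 1 of the labelled knockout. Relative to its group mean of log2 CPM, that library was 0.32 higher in Sox2, 0.28 higher in Zfp42 and 0.19 higher in Prdm14. In Sall4 it deviated by -0.22, in Utf1 by -0.21 and in Pou5f1 by -0.12. Replicate 2 deviated more in Utf1, by 0.24. Without replicate 1 the log2 difference at day 0 was 0.16 for Sox2, -0.05 for Sall4, 0.13 for Prdm14 and -0.01 for Zfp42, each moved by more than 1.5 times. Pou5f1 was then at -0.12, Utf1 at -0.21, Tfcp2l1 at 0.14 and Nanog at 0.03. None of the 8 was called without it.

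At day 7, where 0.026% of genes were called between the genotypes (5 genes), again none of the 8 was. An unadjusted p under 0.05 by edgeR was found for 3, Nanog, Prdm14 and Tfcp2l1, and for 1573 of the 19235 genes tested. DESeq2 called 0 of the 8. Tfcp2l1 had the largest difference, -0.53 (SE 0.16, adjusted p = 0.465), with 1 labelled knockout library above 1 of wild type. Prdm14 at 0.32 (SE 0.13, adjusted p = 0.577) and Nanog at 0.21 (SE 0.07, adjusted p = 0.514) were higher in all 3 labelled knockout libraries. The other members were at 0.11 (Pou5f1, SE 0.07), 0.05 (Sox2, SE 0.13), -0.13 (Sall4, SE 0.09), -0.05 (Utf1, SE 0.11) and -0.25 (Zfp42, SE 0.37), with overlap in each. The differences of Tfcp2l1 and Zfp42 rest on at most 190 counts per library.

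**Figure D4:**
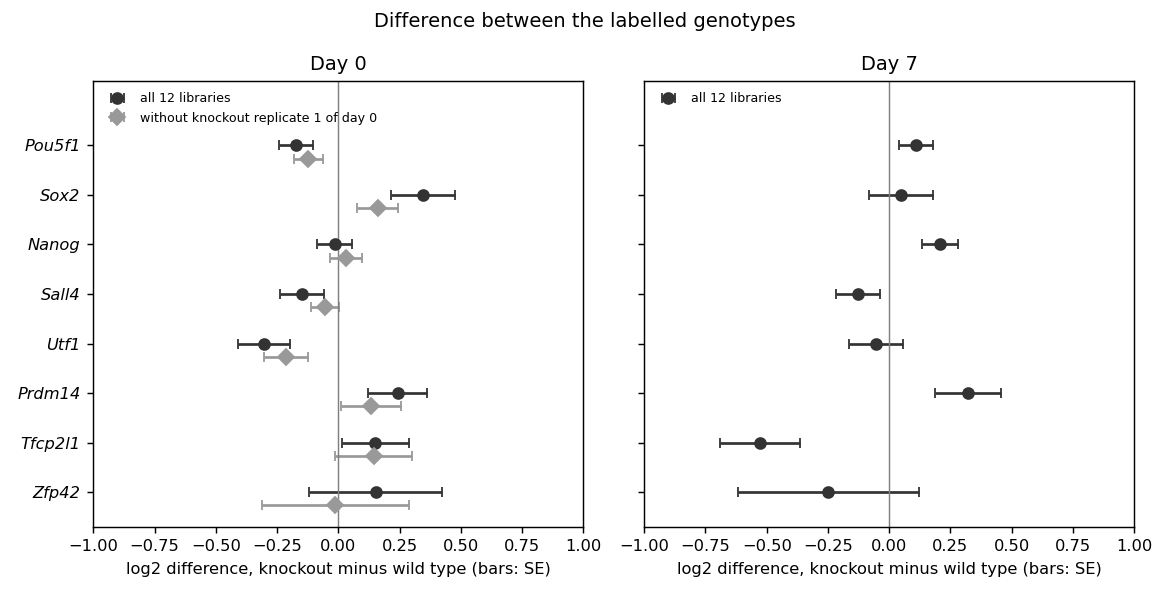
Log2 difference of each factor between the labelled knockout and wild type at day 0 (left) and day 7 (right); bars are SE. Grey diamonds give day 0 without replicate 1 of the labelled knockout, where Sox2 moves from 0.34 to 0.16 and Sall4 from -0.15 to -0.05; no point passed the adjusted threshold.

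Whether the fall itself differed between genotypes was tested with an interaction term, the change in the labelled knockout minus that in wild type, which called 0.026% of genes (5) and none of the 8. An unadjusted p under 0.05 by edgeR was found for 2 members, and for 1319 of the 19235 genes tested. DESeq2 called 0 of the 8. Pou5f1 had 0.28 (SE 0.10, adjusted p = 0.589). Tfcp2l1 had -0.68 (SE 0.21, adjusted p = 0.539), and the range of its adjusted p over the alternatives was 0.0772 to 1. Without replicate 1 of the labelled knockout at day 0, the interaction was -0.087 for Sox2, -0.049 for Sall4, 0.21 for Prdm14 and -0.21 for Zfp42, 0.25 for Pou5f1, 0.20 for Nanog, 0.18 for Utf1 and -0.65 for Tfcp2l1. With all libraries the others were at -0.30 (Sox2, SE 0.18), 0.22 (Nanog, SE 0.10), 0.02 (Sall4, SE 0.13), 0.25 (Utf1, SE 0.15), 0.08 (Prdm14, SE 0.18) and -0.40 (Zfp42, SE 0.46). Over the fits that leave out 1 library the Sox2 value ran from -0.39 to -0.087 and that of Prdm14 from 0.0079 to 0.21. The comparisons of genotype share their day 0 and day 7 libraries with the comparisons of day above.

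By parental genome, the resolved reads of 3 of the factors were almost all of genome 1, and those of the other 5 were of both. Which strain genome 1 stands for is not stated in the files. Pou5f1 had reads that could be resolved in small number, 1020 over the 12 libraries, of which 4 were of genome 2 (0.392%). The resolved reads were 0 to 0.285% of its reads in a library, so nearly all Pou5f1 reads carried no allele information. Sox2 had 35 genome 2 reads of 25462 (0.137%) and Nanog 151 of 76523 (0.197%). At day 7 Sox2 had none of 3544 reads in wild type and none of 2603 in the labelled knockout, which allows shares of up to 0.0847% and 0.115%. Of the genes within 1 Mb, 41 of 58 near Pou5f1, 3 of 6 near Sox2 and 6 of 13 near Nanog had a genome 2 share under 5%. The medians of these neighbours were 0.0479, 4.95 and 8.29%. Over all 13012 autosomal genes 46.5% had a share under 5%, so the counts near Sox2 and Nanog say nothing about these loci. The median share of the whole chromosome was 0.528% on chromosome 17, 0.0967% on chromosome 3 and 0.292% on chromosome 6. In the test of allelic balance, Sox2 at day 0 had 33 genome 2 reads of 11180 in the labelled knockout and 2 of 8135 in wild type, with an unadjusted p of 0.0349 and adjusted p = 1 by edgeR. Nanog was not called in any comparison. Its smallest adjusted p was 0.302, over the days in the labelled knockout, where 4 genome 2 reads of 41170 at day 0 stood beside 7 of 487 at day 7, all 7 in replicate 2. Whether the cells carry genome 2 there was not tested.

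Sall4 was read mostly from genome 2, at 76.4, 73.7 and 72.8% in the wild type libraries of day 0 and 79.6, 83.0 and 79.2% at day 7. The labelled knockout had 78.9, 75.6 and 72.2% and then 81.9, 81.8 and 85.8%. All day 7 libraries lay above all those of day 0, and 2251 to 10035 resolved reads stood behind each share. How many of all genes separate by day in their allele shares was not counted. The log2 ratio of genome 2 to genome 1 differed by 0.53 (SE 0.20, adjusted p = 0.279) in wild type and 0.68 (SE 0.20, adjusted p = 0.159) in the labelled knockout. Among 9344 genes tested for allelic balance 3.67% and 2.99% were called over the 7 days, and Sall4 was not. Of the 10 genes within 1 Mb with enough reads, none had a share under 5%, and their median was 72.4%. Over chromosome 2, 35.9% of genes were under 5% and the median was 38.9%.

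Utf1 was also read mostly from genome 2, at 75.2 ± 5.33% in wild type and 73.9 ± 8.74% in the labelled knockout at day 0 (SD, n = 3), and at 66.8 ± 5.73% and 68.9 ± 11.3% at day 7. Libraries of the 2 days overlapped in each genotype, and the neighbours of Utf1 differed from it, since 15 of 22 had a share under 5%. Over chromosome 7, 16.7% of genes were under 5% and the median was 51.2%. Zfp42 lay at 72.2 ± 6.24% and 78.7 ± 3.83% at day 0. Its 3 neighbours had a median of 95.6% and none was under 5%, beside a median of 60.55% over chromosome 8. The day 7 shares of Zfp42, from 13 to 89 resolved reads, ran from 53.3 to 82.1% in wild type and from 81.5 to 100% in the labelled knockout. The allele table held only 15.9 to 39.7% as many Zfp42 reads as the whole table at day 0, and 239% in 1 library of day 7, so its shares are values only. Nanog was likewise at 39.0 to 82.2% of its whole-table reads.

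Prdm14 and Tfcp2l1, both on chromosome 1, were read from both genomes with genome 1 ahead. Of the genes within 1 Mb, 4 of 5 near Prdm14 and 5 of 7 near Tfcp2l1 had a genome 2 share under 5%, and the median of chromosome 1 was 0.218%. Prdm14 had a genome 2 share of 15.6, 12.2 and 9.36% in wild type and 13.6, 13.0 and 12.8% in the labelled knockout at day 0. At day 7 it was 0, 7.41 and 0% in wild type and 0% in all 3 libraries of the labelled knockout. The allele table held 85.9 to 91.4% as many Prdm14 reads as the whole table at day 0, but 73.1 to 80.9% in wild type and 47.1 to 61.0% in the labelled knockout at day 7. The day 7 shares are 6 genome 2 reads of 167 and none of 127, where a count of 0 allows up to 2.36%. All day 7 libraries thus lay below those of day 0, a separation that was not counted over all genes. The change was not called, with adjusted p = 0.342 in wild type and 0.0688 in the labelled knockout. Leaving out 1 library changed this call: without replicate 2 of wild type at day 7, which holds those 6 reads, adjusted p was 0.0255 in wild type and 0.00888 in the labelled knockout. Without replicate 1 of that group it was 0.0299 in the labelled knockout.

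Tfcp2l1 had 31.3, 29.6 and 32.2% of genome 2 in wild type and 28.4, 31.5 and 30.7% in the labelled knockout at day 0, from at least 2533 resolved reads each. At day 7 the wild type libraries had 45.2, 29.7 and 17.1% and the labelled knockout libraries 39.4, 0 and 0%, from 20 to 128 reads. Day 0 shares were close together and day 7 shares scattered around them. Its log2 ratio between days had adjusted p = 1 in wild type and 0.868 in the labelled knockout; without replicate 1 of the labelled knockout at day 7 the latter was 0.0190. Between genotypes 0% of genes were called for allelic balance at day 0 (0 of 9344, with 290 at an unadjusted p under 0.05 by edgeR), and 0.0321% at day 7. The interaction called 0% (0 genes, 231 at an unadjusted p under 0.05). Of the 8 factors 6 had enough reads in every library, all but Pou5f1 and Zfp42, and none of the 6 was called in these 3 comparisons. An unadjusted p under 0.05 was found for 1 of the 6 at day 0, Sox2, and for 0 at day 7 and in the interaction. With no genome 2 read of Sox2 at day 7 in either genotype, its ratio there and its interaction could not be estimated.

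**Figure D5:**
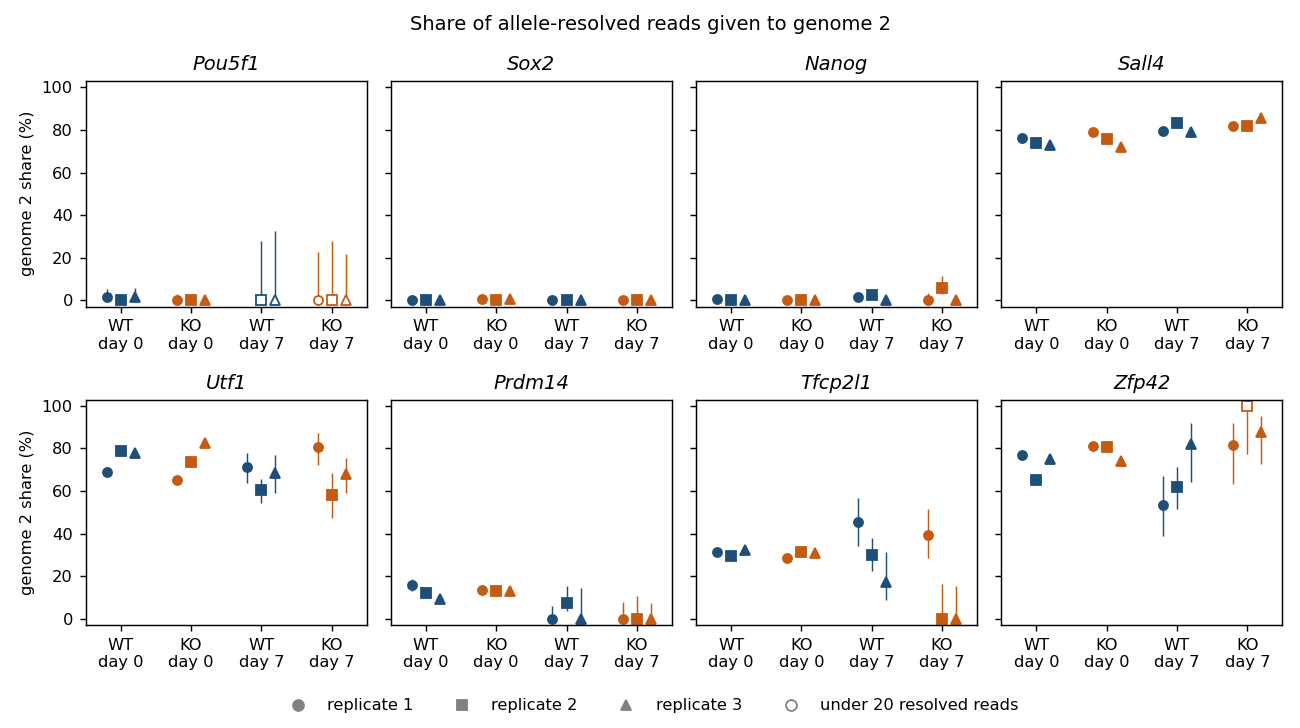
Share of allele-resolved reads given to genome 2 for each factor in every library (percent), with 95% Wilson intervals that cover counting error only; open symbols have under 20 resolved reads. Pou5f1, Sox2 and Nanog lie near 0, Sall4, Utf1 and Zfp42 lie above 50%, and the Prdm14 shares of day 7 lie below those of day 0.

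Other genes of the network were read from lists of textbook members. The counts below stand beside 32.1% of all genes tested that fell and 32.9% that rose in wild type, and 32.3% and 31.1% in the labelled knockout, so shares near these say nothing about a list. Of 13 further naive state factors, 10 fell and none rose in each genotype, with a median log2 difference of -3.69 in wild type and -4.78 in the labelled knockout. Klf4, a LIF-responsive Kruppel-like factor, went from 523 to 22.1 CPM in wild type (-4.56, SE 0.08, adjusted p = 2.01e-11) and its relatives Klf2 (-5.24) and Klf5 (-3.11) fell too. Tbx3, Mycn and Stat3, named because they were the 3 not called, were at 0.02, -0.08 and -0.27 in wild type. The orphan nuclear receptor Esrrb was the 1 gene of all the lists called between genotypes. At day 0 it was at 205, 315 and 173 CPM in the labelled knockout and at 54.5, 38.5 and 38.5 CPM in wild type, and at day 7 at 2.26, 2.26 and 2.58 CPM and at 3.51, 3.74 and 2.86 CPM. Its log2 difference at day 0 was 2.40 (SE 0.22, adjusted p = 0.00147) and 2.47 without replicate 1 of the labelled knockout. It was called in 17 of 18 alternatives, all but the fit of only the libraries compared (adjusted p = 0.0884). Its interaction was -2.92 (SE 0.32, adjusted p = 0.0152), called in 15 of 17 alternatives. The call was lost with the block on genotype and replicate number (adjusted p = 0.280) and without replicate 3 of the labelled knockout at day 7 (adjusted p = 0.0580). At day 7 Esrrb was not called between genotypes (-0.52, SE 0.24, adjusted p = 0.607). The largest difference among the 8 factors at day 0 was the 0.34 of Sox2, which was not called.

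Of 16 genes known to be bound or driven by OCT4 and SOX2, 15 fell and 1 rose in each genotype, with medians of -5.64 and -5.86. Dppa5a, an RNA-binding marker of ES cells, went from 1727 to 17.2 CPM in wild type (-6.65, SE 0.13, adjusted p = 3.59e-11). The TGF-beta ligand Gdf3 (-5.39), the chromatin protein Dppa4 (-5.55) and the DNA methyltransferase cofactor Dnmt3l (-5.73) fell as well. The gene that rose was Lin28a, an RNA-binding regulator of let-7, at 0.72 in wild type and 0.65 in the labelled knockout; it was named after its values were seen. Of 18 protein partners of OCT4 and NANOG, 8 fell and 7 rose in wild type and 9 fell and 4 rose in the labelled knockout, with medians of 0.07 and -0.08. L1td1 (-3.78), the 5-methylcytosine oxidase Tet1 (-3.20), the corepressor Trim28 (-1.72) and the methyltransferase subunit Wdr5 (-1.66) were among those that fell in wild type.

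Of 31 relatives of the 8 by gene family, 12 fell and 13 rose in wild type, and 13 fell and 14 rose in the labelled knockout. Sox15, an ES cell relative of Sox2, fell from 40.6 to 1.26 CPM in wild type (-5.00, SE 0.27), while Sox11 rose from 4.49 to 210 CPM (5.56, SE 0.21) and Sox9 from 0.0471 to 29.3 CPM (8.84, SE 0.58). Prdm6, a smooth muscle relative of Prdm14, rose from 0.0463 to 234 CPM (12.34, SE 0.62). Of 11 formative and primed state genes, 6 rose and 3 fell in each genotype. Lef1, a WNT effector, rose by 4.68, and the growth factors Fgf5 and Fgf8 by 6.18 and 5.15 in wild type. The 3 that fell were Otx2, Zic2 and Sfrp2, named after their values were seen.

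Markers of other cell types moved in the same libraries, and their part in the fall of the 8 factors was not tested. All 12 mesoderm markers rose in both genotypes, from a summed level of 71.9 to 104 CPM to one of 3217 to 3579 CPM in wild type. The heart and lateral mesoderm factor Hand1 was the most abundant named, at 1945 CPM. Of 8 trophoblast markers tested, 7 rose and Ascl2 fell, from 3.24 to 0.876 CPM in wild type. Elf5 and Tpbpa, with 4 and 0 counts over all libraries, were under the filter (these 3 were named after their values were seen). The sum of the list went from 54.2 to 67.5 CPM to 6340 to 7376 CPM in wild type. Most of it was the keratins Krt8 and Krt18, which other epithelia also express, and Hand1, which is on the mesoderm list too. Of 9 endoderm markers 7 rose and 1 fell, Sox7, with sums of 15.7 to 17.5 CPM and 257 to 267 CPM. Of 7 neural markers tested 3 rose and 4 fell. Sox1, a defining neural SOX gene, was at 9.07 CPM and then at 0.0897 CPM in wild type, and Pax6, Neurog1 and Tubb3 fell too. Nes rose from 23.0 to 150 CPM, and Zic1 and Fabp7 rose by 3.28 and 7.11 to under 1 CPM (these 3 were named after their values were seen). The cells that hold the remaining Sox2 were not tested. Of 9 germ cell markers (Prdm14 and Utf1 are also used in germ cells) 6 fell and 1 rose in wild type and 5 fell and 1 rose in the labelled knockout; Dazl had no read at day 7. Fibroblast markers, which feeder cells would bring, summed to 66.1 to 75.1 CPM in wild type and 68.5 to 78.5 CPM in the labelled knockout at day 0, of which Fbln1 and Thy1 made up most, with Col3a1 and Dcn at 0 in both groups (Thy1, Col3a1 and Dcn were named after their values were seen); at day 7, 8 of 9 had risen.

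Across the 12 libraries the genes most like each factor in log2 CPM were those that fell between the days, and the points share their libraries and the contrast of the days. Among 10175 genes compared, Ina was nearest to both Pou5f1 (Pearson r = 0.9996) and Nanog (r = 0.9997), with Rpp25 next for Pou5f1 and Gdf3 next for Nanog. Utf1 was most like Chchd10 and Gng3, Prdm14 most like Zfp534 and Klf5, Tfcp2l1 most like Slc25a12 and Dppa5a, and Zfp42 most like Bccip and Spry4. Sox2 was nearest to Parp1 (r = 0.999) and Alg13, and Sall4 to Gins4 (r = 0.996) and Trim28. For Sox2 and Sall4, 60 and 64 genes reached r = 0.99, while for the other 6 it was 187 to 327 genes.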

How the data were processed

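RNA of 12 libraries was analysed from the deposited tables. The authors deposited expected counts, estimated by StringTie for genes and for transcripts, with no normalization, and a further table gives the expected counts of each gene by parental genome (genome 1, genome 2, unassigned). Every value was a whole number, so none was rounded. The submitters' processing notes name DESeq2 1.32.0, StringTie 1.3.3, HISAT2 2.1.0, SAMtools 0.1.19, Trimmomatic 0.36 and FastQC 0.11.3, and GRCm38 and mm10 as builds. Use of strand is not given in the sources used here, nor is the annotation, so reads of overlapping genes cannot be told apart.

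Of 55487 identifiers, 55227 (99.53%) were found in GENCODE M21. Expression was fitted over the 12 libraries together with edgeR 4.0.16 in R 4.3.3 (quasi-likelihood test, 1 coefficient per group, TMM, filterByExpr), and p-values were adjusted by Benjamini-Hochberg over 19235 genes, with a threshold of 0.05. Log2 CPM used a prior count of 2. For allelic balance, edgeR was run on the reads of both genomes side by side, with each library as a block, for genes whose every library had 20 or more reads assigned to a genome. The tests were checked on simulated data. Neighbouring genes and chromosome medians used genes with at least 200 such reads over the 12 libraries. Wilson intervals, at 95%, and the floor of 3 counts cover counting error only, since PCR reads without molecular identifiers are not independent molecules. Replicates differed beyond sampling noise (chi-square over its degrees of freedom 22.4 to 54.9), so each library was counted once. Library totals of 25190483 to 69079368 counts set the precision.

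Alternatives were RLE normalization, no filter on low counts, DESeq2 1.42.0, only the libraries compared, a replicate block, the treatment label as a covariate, each library left out in turn, and a minimum of 50 reads for allelic balance. The replicate block was genotype and number together for the comparisons of day and the interaction, and number alone between genotypes. Levels by transcript length were added after seeing the data. Named were all 8 members, Sirt7, up to 4 genes of each other list with the smallest adjusted p per comparison, and for each member the 2 genes with the highest r over the 12 libraries (mean log2 CPM of at least 2, no predicted-gene symbol), besides genes marked in the text as named otherwise. The members and lists were chosen with earlier results of these data known. Promoter sequences came from RefSeq, GRCm38.p6, which had entries for 6 of the 8 members.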

Additional observations from a re-analysis of the deposited data

How the results depend on the processing

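All 8 factors were called lower over the 7 days in both genotypes under all 18 alternatives, and no factor was called between genotypes or for the interaction (17 alternatives) under any. Over the libraries left out in turn, genes called ran from 6 to 55 at day 0 (25 with all libraries), 5 to 13 at day 7 (5), 0 to 15 for the interaction (5), 11498 to 12913 over the days in wild type and 11284 to 12326 in the labelled knockout. DESeq2 called 441 genes at day 0, 163 at day 7 and 143 for the interaction. Using only the libraries compared, 0 genes were called at day 0 (1372 at an unadjusted p under 0.05) and 9 at day 7; the treatment label as a covariate gave 10 at day 0, and no filter gave 8 for the interaction. With the replicate block, 6 genes were called at day 0, 2 at day 7, 0 for the interaction (847 at an unadjusted p under 0.05 by edgeR), 11343 over the days in wild type and 10986 in the labelled knockout, and calls of the members did not change. Correlations of deviations from the group means were -0.0243 to 0.0613 for same-numbered libraries and -0.0529 to 0.0568 for libraries with other numbers. With 3 libraries per group they cannot decide whether same-numbered libraries share a culture. The cause of the differences between the alternatives was not tested.

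Signs reversed when single libraries were left out for Nanog (-0.092 to 0.033) and Zfp42 (-0.012 to 0.23) at day 0, Sox2 (-0.0082 to 0.13) and Zfp42 (-0.63 to 0.23) at day 7, and Sall4 (-0.049 to 0.093) and Zfp42 (-0.79 to 0.078) in the interaction. In allelic balance they did so at day 0 for Sall4 (-0.028 to 0.23), Utf1 (-0.42 to 0.25), Prdm14 (-0.079 to 0.34) and Tfcp2l1 (-0.11 to 0.0028). They also did so for Utf1 at day 7 (-0.22 to 0.54) and in the interaction (-0.15 to 0.62), and for Tfcp2l1 over the days in wild type (-0.49 to 0.38). Nanog reversed at day 7 (-4.49 to 1.00, -0.45 without replicate 3 of wild type) and in the interaction (-0.25 to 7.09). With single libraries left out, the Sox2 value over the days in wild type ran from -1.75 to 1.68. Its only genome 2 reads in wild type were 2 in replicate 1 of day 0, so no sign can be read from it. No such fit gave a Sox2 value at day 7 or for the interaction. Genes called for allelic balance ran from 0 to 4 at day 0, 0 to 4 at day 7, 215 to 382 over the days in wild type, 212 to 310 in the labelled knockout and 0 to 1 for the interaction; a minimum of 50 reads gave 2 at day 7. Depth limits the day 7 values of Zfp42, Tfcp2l1 and Prdm14, which rest on 25 to 190 counts per library, and the allelic values of Pou5f1. By transcript length, 6 of the 8 factors kept their place in the order of levels in the labelled knockout at day 7 and all 8 did in the other groups.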
